A study of Rattus norvegicus with 8 samples.

Results

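Complex III, complex IV and ATP synthase of the mitochondrial respiratory chain were followed through the genes of their nuclear-encoded subunits. Members were all genes whose names begin with Uqcr, with Cox and a digit from 4 to 8, or with Atp5, which gave 42 of the 17446 genes counted: 8 of complex III, 17 of complex IV and 17 of ATP synthase. Whole blood was taken from male Wistar rats of 2 models of hypertension. The rats used were aged 12 to 14 weeks, and no age is given for each blood collection. Each model had 2 RNA-seq libraries before and 2 after CMG (Chios mastic gum) administration, 8 libraries in all. The question was how blood transcripts differed after the administration of CMG, a plant resin given orally at 220 mg/kg for 4 weeks. In the AngII model, angiotensin II came from a minipump at 0.4 mg/kg/day, with blood collected at week 1, before CMG, and at week 5, after it. The DOCA–HS model combined DOCA at 100 mg/kg weekly with 0.9% NaCl and 1% KCl in the drinking water, with blood collected at week 3, before CMG, and at week 7, after it. As no library of untreated rats or of rats kept without CMG was analysed here, 4 further weeks of the model and CMG cannot be told apart. The sources do not say whether libraries with the same number came from the same rat, and p-values measure the spread between the 2 libraries of a group.

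Complex III takes electrons from ubiquinol and passes them to cytochrome c, complex IV passes them on to oxygen, and both pump protons across the inner mitochondrial membrane. ATP synthase lets the protons back through its membrane part and uses the flow to make ATP in its catalytic head. Mature red cells have lost their mitochondria, whereas reticulocytes, platelets and leukocytes of blood still hold some, and erythroid precursors need them for heme synthesis.

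Total counts were 4149104 to 13205565 per library, and the Hbb and LOC100134871 hemoglobin transcripts took 61.9% to 84.3% of them. The second DOCA–HS library after CMG stood apart, with the fewest counts, the largest hemoglobin share and a TMM (trimmed mean of M-values) scaling factor of 0.343 against 0.776 to 1.88 in the others, and the calls made in the DOCA–HS model are given with and without it. Normalized CPM below are CPM (counts scaled to a common library size) with these factors, which compare libraries for 1 gene but not genes with each other, because transcript lengths were not used. As a check of the tissue, 16 of the 20 reticulocyte and erythroid markers had at least 10 counts in every library, and none of the 14 heart muscle markers had 10 counts in any library, with sums of 0 to 8 counts. The counts of the members came to 9115 to 35036 per library.

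The promoters of 4 of the 5 members called higher in the DOCA–HS model are shown first, with the values given further on. These are the 4 that hold a match to a motif marked below, whereas the other, Uqcr10, holds none. RefSeq promoters of the GRCr8 assembly, which is not the rn6 assembly of the counts, were found for 35 of the 42 members. The 250 bases before the gene start are printed 5′ to 3′ in the direction of the gene, and capitals mark matches on either strand to GCATGCGC, the core of the site of nuclear respiratory factor 1, and to CCGGAAG, the core of ETS sites such as that of GABP. Atp5me (chr14:1464610-1464859, plus strand) encodes subunit e of the membrane part of ATP synthase, Atp5mg (chr8:54130408-54130657, minus strand) encodes subunit g, Uqcrh (chr5:134790883-134791132, minus strand) encodes the hinge protein of complex III, and Cox7a2 (chr8:89601150-89601399, minus strand) encodes the widely expressed form of a small subunit of complex IV.
Atp5me: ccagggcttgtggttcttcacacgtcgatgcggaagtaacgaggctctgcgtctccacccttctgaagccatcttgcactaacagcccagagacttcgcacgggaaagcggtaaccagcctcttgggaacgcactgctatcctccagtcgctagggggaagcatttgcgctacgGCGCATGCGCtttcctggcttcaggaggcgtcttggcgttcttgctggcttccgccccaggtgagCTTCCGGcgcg
Atp5mg: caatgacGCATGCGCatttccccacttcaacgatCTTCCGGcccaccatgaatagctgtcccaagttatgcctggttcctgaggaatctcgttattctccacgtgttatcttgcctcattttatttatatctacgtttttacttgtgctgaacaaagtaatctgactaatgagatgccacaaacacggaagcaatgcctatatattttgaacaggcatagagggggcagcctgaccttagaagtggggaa
Uqcrh: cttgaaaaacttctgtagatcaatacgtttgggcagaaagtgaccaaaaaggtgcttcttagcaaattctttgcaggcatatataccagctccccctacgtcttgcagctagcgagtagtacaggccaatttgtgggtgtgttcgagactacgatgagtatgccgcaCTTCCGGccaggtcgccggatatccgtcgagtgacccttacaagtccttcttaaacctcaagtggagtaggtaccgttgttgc
Cox7a2: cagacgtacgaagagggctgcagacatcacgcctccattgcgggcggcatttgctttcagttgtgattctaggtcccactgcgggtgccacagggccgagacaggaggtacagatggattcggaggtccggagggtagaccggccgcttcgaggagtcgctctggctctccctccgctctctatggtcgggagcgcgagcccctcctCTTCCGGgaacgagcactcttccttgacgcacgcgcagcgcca

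Motifs were counted on both strands over these 250 bases. The core GCATGCGC was present in 6 of the 35 member promoters (17.1%), against 2.20% of all 33469 promoters of the table and 5.19% of the 6323 promoters of genes tested in the DOCA–HS model. CCGGAAG was present in 11 of the 35 (31.4%), against 7.27% of all promoters and 18.4% of those of tested genes. AAGATGG, the core of the YY1 site, was present in 11.4% of member promoters, 4.62% of all and 4.67% of those tested, and GGGCGG, the Sp1 core, in 40% of member promoters, 30.5% of all and 60.3% of those tested. Among the 5 members called higher in the DOCA–HS model, 4 promoters held CCGGAAG and 2 held GCATGCGC, the latter starting 76 bases before the gene start in Atp5me and 243 in Atp5mg. Uqcr10 held none of the 4 motifs, and Uqcrc2, a member that was lower, held CCGGAAG too. A match is a run of letters, and binding was not measured.

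Of the 42 members, 32 had at least 10 counts in every library, and 35 passed the filter on low counts and were tested in all comparisons. The tissue-restricted isoforms of complex IV were not detectable at this depth. Cox6a2 and Cox8b, the isoforms of heart and skeletal muscle, Cox8c, a testis isoform, and the pseudogene Cox6c-ps1 had 0 counts in all 8 libraries, which allows up to 3 counts, or 0.227 to 0.723 CPM of total counts, per library. Cox4i2, the lung isoform of subunit 4, had at most 2 counts and Cox6b2, the testis isoform of subunit 6b, at most 1 count in any library. Their ubiquitous counterparts were all counted: Cox4i1 had 120.5 to 643 normalized CPM, Cox6a1 148 to 720.0, Cox6b1 27.5 to 108 and Cox8a 22.7 to 66.8. Atp5pb, which encodes subunit b of the peripheral stalk of ATP synthase, was the remaining member: its AngII libraries held 1 and 1 counts before CMG and then 0 and 41, and its DOCA–HS libraries held 47 and 2 counts before CMG and then 4 and 0. In each model Atp5pb was thus well counted in 1 library only, while the other stalk genes Atp5pd, Atp5pf and Atp5po were counted in all. Whether its reads are shared with a near-identical copy was not tested.

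The summed levels of the 3 complexes followed one another across libraries. For complex III the AngII libraries summed to 341 and 429 normalized CPM before CMG and to 369 and 235 after it, and the DOCA–HS libraries to 212 and 268 before CMG and to 331 and 1092 after it. Complex IV summed to 890 and 1101, then 910 and 584, in the AngII model and to 500.5 and 617, then 639 and 2075, in the DOCA–HS model. ATP synthase summed to 1523 and 1900, then 1569 and 963, in the AngII model and to 806 and 1009, then 1182 and 3242, in the DOCA–HS model. In all 3 complexes the AngII groups overlapped, and both DOCA–HS libraries after CMG lay above both libraries before it, by a narrow margin for the first and a wide one for the second. Single genes weigh heavily in these sums. In the first DOCA–HS library after CMG, Uqcrh held 263 of the 331 and Atp5f1b 583 of the 1182. Member by member, that library had median log2 differences from the 2 before CMG of -0.10 and 0.06 in complex III. They were 0.32 and -0.06 in complex IV and 0.06 and -0.34 in ATP synthase. In bulk blood, fewer cells of a type and less RNA per cell cannot be told apart.

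**Figure D1:**
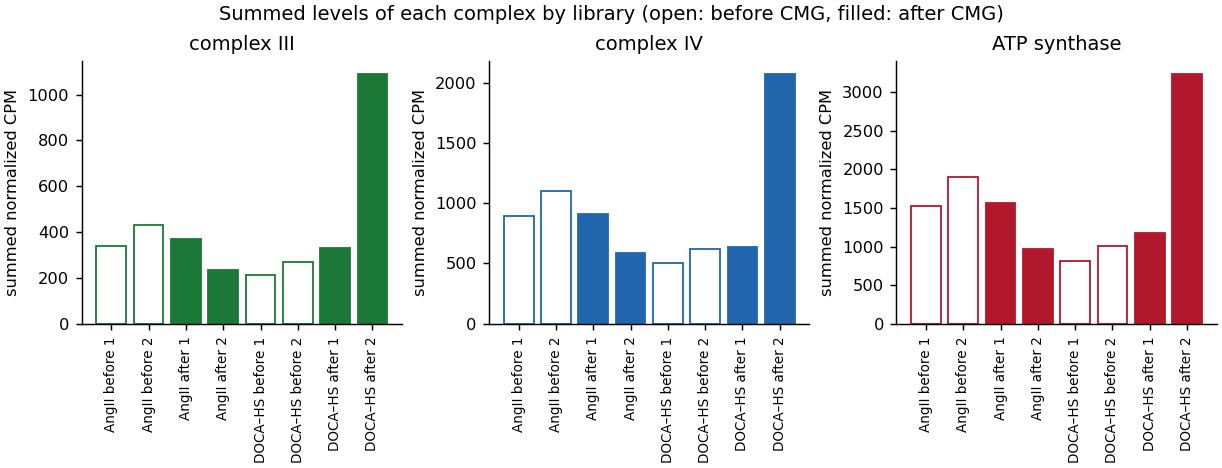
Summed normalized CPM (vertical axis, from 0) of the members of each complex in each of the 8 libraries, with open bars before and filled bars after CMG. The second DOCA–HS library after CMG is the tallest bar in each panel, at 1092, 2075 and 3242, and the first lies close to the libraries before CMG.

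No member rose or fell in the AngII model by the criterion used throughout, an absolute log2 fold change above 1.5 together with an unadjusted p of at most 0.05 (edgeR's quasi-likelihood test). Over all 7201 genes tested, 0.903% were called higher and 0.333% lower. Of the 35 members tested, 33 had log2 fold changes below 0, with a median of -0.44 where that of all genes was -0.01. An unadjusted p of at most 0.05 was reached by 3 of the 35 members, beside 479 of all 7201 genes tested. DESeq2 and limma-voom also called 0 members. The medians were -0.44 in complex III, -0.44 in complex IV and -0.45 in ATP synthase, so the complexes differed by far less than the medians of single library pairs, which ran from -0.11 to -0.92 over all members. Both libraries after CMG lay below both before it for 15 of the 35 members, against 18.5% of all genes, and above for 0, against 21.3%.

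Cox7c, a small membrane subunit of complex IV, had 9.75 and 8.78 normalized CPM before CMG and 4.64 and 5.03 after it. Its groups did not overlap, and its log2 fold change was -0.92 (SE 0.29, unadjusted p = 0.0126, adjusted p = 0.628). Atp5me had 16.2 and 20.4 before and 12.6 and 7.03 after CMG, a log2 fold change of -0.88 (SE 0.36, unadjusted p = 0.0413). For Atp5f1e, the epsilon subunit of the catalytic head, the values were 13.99 and 10.8 before and 7.36 and 7.47 after CMG, and the log2 fold change was -0.73 (SE 0.30, unadjusted p = 0.0419). Cox5b, a matrix-facing subunit of complex IV, went from 31.8 and 34.6 to 25.1 and 15.1, again without overlap, at a log2 fold change of -0.71 (SE 0.35, unadjusted p = 0.0759). In complex III the smallest p belonged to the small subunit Uqcr11, with 11.0 and 10.3 before and 7.04 and 7.17 after CMG and a log2 fold change of -0.57 (SE 0.28, unadjusted p = 0.0817). None of the 35 members had an adjusted p under 0.05.

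None of the core subunits Uqcrfs1, Uqcrc1, Cox4i1, Cox5a, Atp5f1a and Atp5f1b had an unadjusted p of at most 0.05 in the AngII model. Atp5f1b, the catalytic beta subunit of ATP synthase, had 590 and 740 normalized CPM before and 664 and 387 after CMG (log2 fold change -0.31, SE 0.44). Uqcrfs1, the Rieske iron–sulfur protein of complex III, had 10.4 and 14.02 before and 10.9 and 13.2 after it (log2 fold change 0.02, SE 0.30), and Uqcrc1, a core protein of complex III, had 23.2 and 25.8 before and 20.2 and 15.7 after it (-0.43, SE 0.30). Cox4i1, the common form of the largest nuclear-encoded subunit of complex IV, had 219.9 and 268 before and 242 and 163 after it (-0.25, SE 0.38). Cox5a, a matrix-facing subunit of complex IV, had 22.8 and 13.3 before and 16.96 and 7.54 after it, and Atp5f1a, the alpha subunit that alternates with beta in the head of ATP synthase, had 34.2 and 44.8 before and 27.5 and 40.6 after it, with overlap in both. Atp5if1, the inhibitor that stops ATP synthase from running backwards, had 547 and 679 before and 549 and 304 after it (-0.50, SE 0.45). For Atp5f1b, Uqcrfs1, Cox4i1 and Atp5if1 the groups overlapped, and for all of these but Uqcrfs1 the second library after CMG was the lowest of the 4. The second library after CMG was also the lowest for 4 members described further on for the DOCA–HS model, with no overlap for Atp5mg, by a narrow margin. Atp5mg had 98.6 and 117 before and 98.4 and 59.8 after CMG, and Uqcrh 250.3 and 311.5 before and 281 and 163 after it. Uqcr10 had 17.4 and 24.5 before and 20.96 and 9.39 after CMG, Cox7a2 23.4 and 33.95 before and 27.2 and 14.3 after it, and the first library after CMG lay between the libraries before it for Uqcrh, Uqcr10 and Cox7a2. The median over the members was -0.80 without the first library after CMG and -0.25 without the second.

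In the DOCA–HS model, 5 of the 35 members tested were upregulated after CMG and 0 were downregulated, against 1.79% and 0.259% of the 7720 genes tested. They were Atp5me and Atp5mg of ATP synthase, Uqcrh and Uqcr10 of complex III and Cox7a2 of complex IV. The median over the members was 0.87 on the log2 scale against -0.04 over all genes, with 30 members above 0 and 5 below. It was 1.06 in complex III, 0.99 in complex IV and 0.52 in ATP synthase. None had an adjusted p under 0.05, and the adjusted p of all 5 was 0.997.

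Atp5me had 9.86 and 9.56 normalized CPM before CMG and 21.8 and 92.8 after it. Both libraries after CMG were above all 6 others, the second by far, and the log2 fold change was 2.53 (SE 0.70, unadjusted p = 0.00639), or 5.79-fold. Atp5mg had 54.1 and 75.2 before and 94.9 and 461 after CMG, a log2 fold change of 2.11 (SE 0.79, unadjusted p = 0.0269). Uqcrh had 140 and 196 before and 263 and 876 after CMG, a log2 fold change of 1.76 (SE 0.74, unadjusted p = 0.0425). For Atp5mg and Uqcrh too, both libraries after CMG were above both before it, with the first of them inside the range of the AngII libraries. Cox7a2 had 10.1 and 19.1 before and 18.2 and 78.0 after CMG, so its groups overlapped, and the log2 fold change was 1.69 (SE 0.72, unadjusted p = 0.0452). Uqcr10, a small membrane subunit of complex III, had 9.69 and 11.8 before and 12.8 and 57.0 after CMG, a log2 fold change of 1.65 (SE 0.69, unadjusted p = 0.0419).

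**Figure D2:**
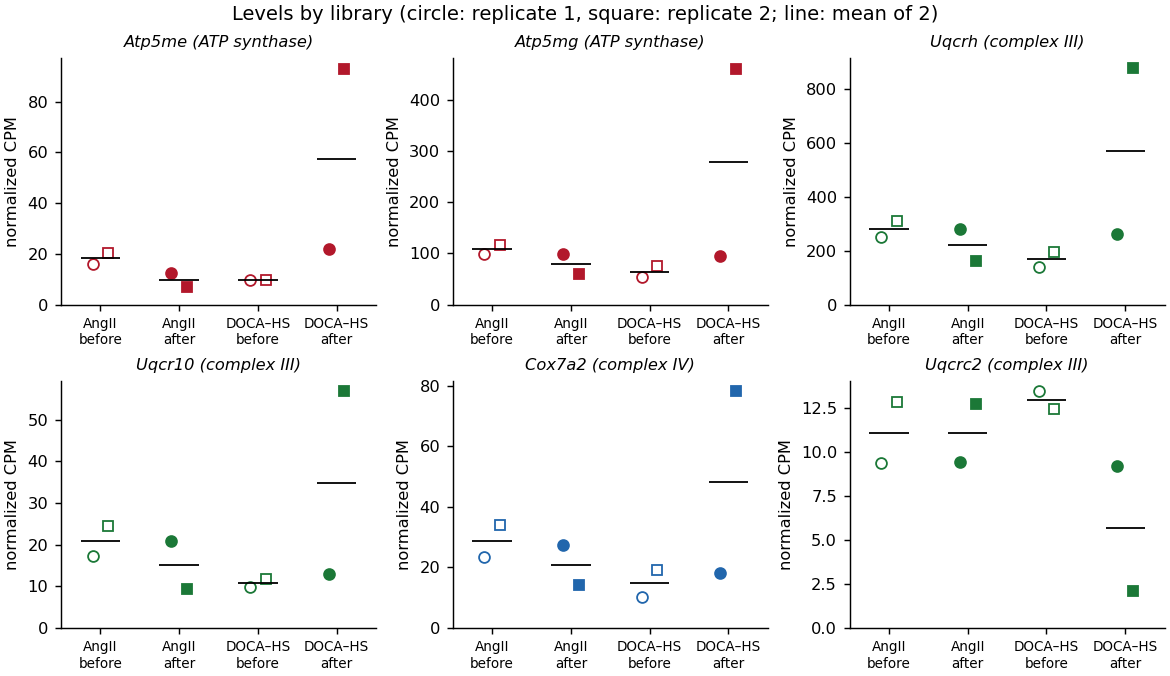
Normalized CPM (vertical axes, from 0) of the 5 members called higher in the DOCA–HS model and of Uqcrc2 in each library, with open symbols before and filled symbols after CMG, circles for replicate 1, squares for replicate 2 and a line at the mean of each pair. The second DOCA–HS library after CMG lies above all others for the 5 members, for example at 92.8 for Atp5me and 876 for Uqcrh, and below all others, at 2.11, for Uqcrc2.

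Several members lay just short of the criterion in the DOCA–HS model. Uqcrq of complex III had a log2 fold change of 1.69 (SE 0.76, unadjusted p = 0.0543), Cox4i1 of 1.59 (SE 0.73, unadjusted p = 0.0604) and Cox6a1 of 1.501 (SE 0.75, unadjusted p = 0.0780). Without the second library after CMG these 3 log2 fold changes were -0.01, 0.35 and 0.20. Cox4i1 had 120.5 and 150.5 normalized CPM before and 172 and 643 after CMG, and Uqcrq had 10.4 and 9.14 before and 9.61 and 56.2 after it, with overlap for Uqcrq only. Cox5a had 13.6 and 19.6 before and 19.7 and 71.7 after it (log2 fold change 1.43, SE 0.65), Atp5f1b had 301 and 389 before and 583 and 1322 after it (1.47, SE 0.70), and Atp5if1 had 227 and 295 before and 291 and 833 after it (1.11, SE 0.70). The Rieske protein Uqcrfs1 had 11.1 and 8.92 before and 10.4 and 16.2 after it (0.36, SE 0.46), and Uqcrc1 had 15.5 and 19.65 before and 16.6 and 43.6 after it, with overlap in both. Uqcr11, Cox5b and Atp5f1e, described above for the AngII model, showed the same pattern of 1 high library. Uqcr11 had 8.14 and 7.12 before and 7.38 and 35.2 after CMG, Cox5b had 19.1 and 21.25 before and 17.3 and 37.3 after it, and Atp5f1e had 12.85 and 13.1 before and 9.69 and 33.75 after it. Both libraries after CMG lay above both before it for 10 of the 35 members, against 14.7% of all genes, and below for 4, against 21.1%. The 10 were 2 of complex III, 5 of complex IV and 3 of ATP synthase.

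**Figure D3:**
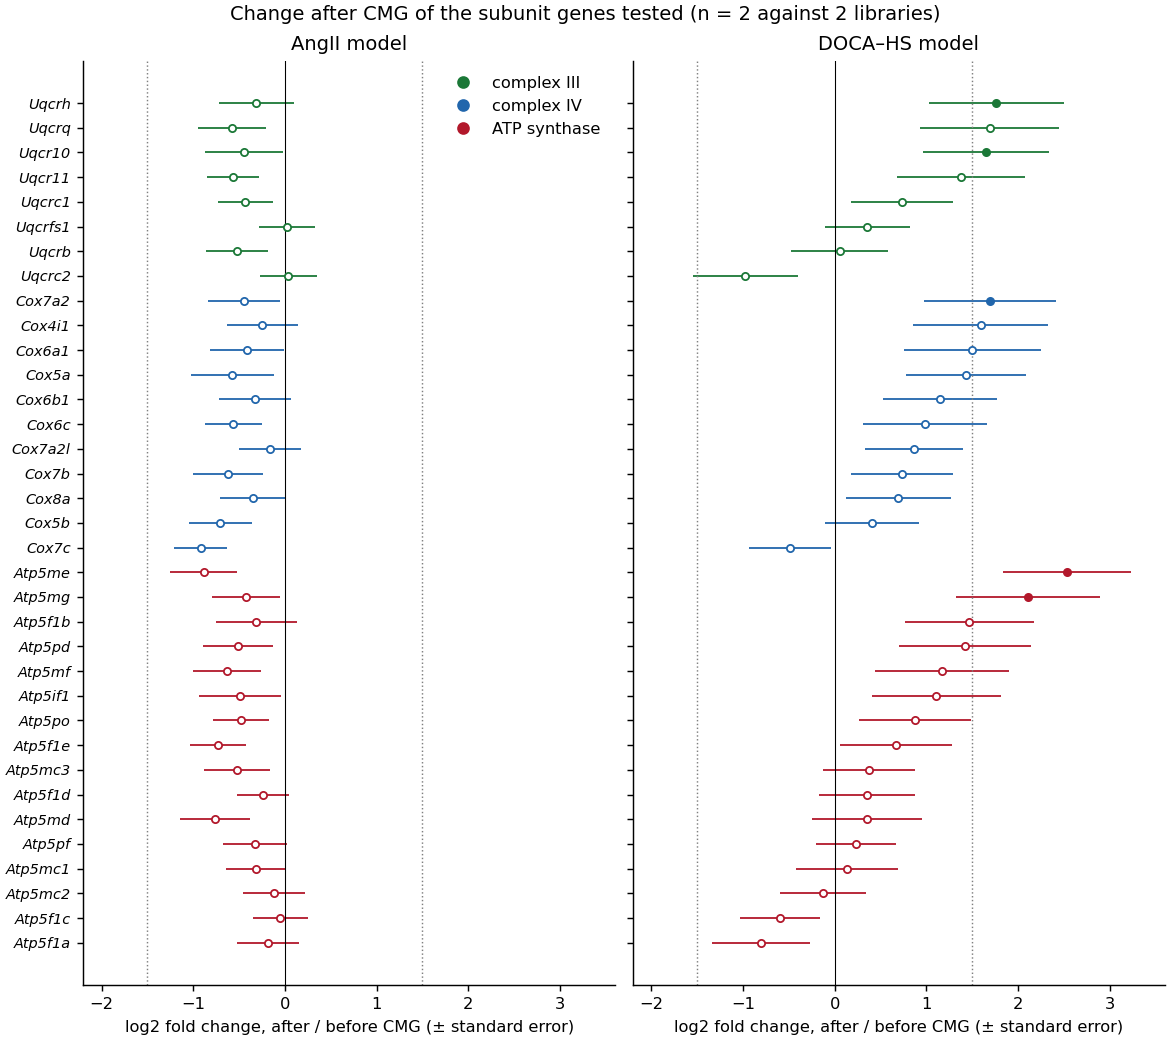
Log2 fold change after against before CMG (horizontal axes, bars of 1 standard error) of the 35 members tested, by complex, in the AngII and the DOCA–HS model, with dotted lines at 1.5 in either direction and filled points for called members. In the AngII panel 33 of 35 points lie below 0 and none is filled, and in the DOCA–HS panel 30 lie above 0 and 5 are filled.

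The 2 DOCA–HS libraries after CMG did not contribute equally. Against the 2 libraries before CMG, the first had median log2 differences of 0.10 and -0.18 over the members, and the second of 1.55 and 1.35, while the medians over all genes were -0.01 and 0.00 for the first and -0.34 and -0.30 for the second. The second library lay above all 7 others for 29 of 36 members (80.6%), against 25.9% of 7994 genes, and below all 7 for 2 members (5.56%), against 42% of genes. Without it no member was called higher, Atp5pb alone was called lower, and the median was -0.05. The log2 fold changes of the 5 called members were then 1.17 for Atp5me, 0.56 for Atp5mg, 0.65 for Uqcrh, 0.27 for Uqcr10 and 0.34 for Cox7a2, on 1 library after CMG assumed to vary like the other group, and that of Atp5me had an adjusted p of 0.0193 (edgeR) in this fit. Without the first library after CMG, the median was 1.35 over the members and -0.37 over all genes. That fit too has 1 library after CMG, assumed to vary like the other group. Leaving out either library before CMG left 1 member called higher, Atp5me, and without the second of them Atp5pb was called lower. Against the mean of the libraries before CMG, the first library after it was higher on the log2 scale by 1.15 for Atp5me, 0.77 for Atp5f1b, 0.66 for Uqcrh and 0.57 for Atp5mg, and the second by 3.23, 1.95, 2.40 and 2.85.

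**Figure D4:**
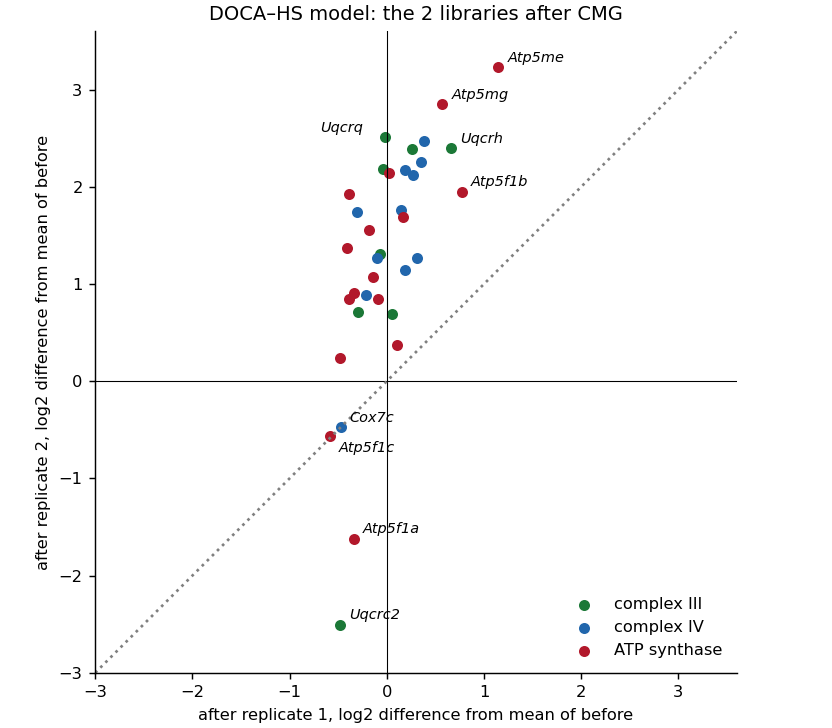
Log2 difference of each DOCA–HS library after CMG from the mean of the 2 before it, with replicate 1 on the horizontal and replicate 2 on the vertical axis, for the 35 members tested, coloured by complex, and a dotted line where both would be equal. Most points rise steeply near 0 on the horizontal axis, Atp5me lies farthest up at 1.15 and 3.23, and Uqcrc2 lies lowest at -0.48 and -2.51.

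The values in the DOCA–HS model depended on the scale. With TMM scaling replaced by total counts, the median over all genes moved to -0.76 and that over the members to -0.35, no member was called, and relative to all genes the members stood at 0.41 in place of 0.90. On total counts, both libraries after CMG still lay above both before it for 5 members, against 1.4% of all genes, and below for 12, against 23.9%. Those 5 were Atp5me, Atp5mg, Uqcrh, Uqcr10 and Cox7a2. Atp5me had 18.5 and 11.0 CPM of total counts before and 31.3 and 31.8 after CMG, Uqcrh had 263 and 226 before and 378 and 300.3 after it, and Atp5mg had 101 and 86.6 before and 136 and 158 after it. The margins of Uqcr10, 18.2 and 13.6 against 18.5 and 19.5, and of Cox7a2, 19.0 and 22.0 against 26.2 and 26.8, were narrow. With total counts outside hemoglobin, Atp5me was the 1 member called.

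The 5 members below 0 in the DOCA–HS model were Uqcrc2 (-0.97, SE 0.58), Atp5f1a (-0.80, SE 0.54), Atp5f1c (-0.60, SE 0.44), Cox7c (-0.49, SE 0.45) and Atp5mc2 (-0.12, SE 0.47), with unadjusted p from 0.129 to 0.7995. Uqcrc2 and Atp5f1c were singled out after their values were seen. Uqcrc2, the second core protein of complex III, had 13.5 and 12.4 normalized CPM before and 9.23 and 2.11 after CMG, and Atp5f1a had 43.7 and 43.7 before and 34.4 and 14.1 after it. For both the groups did not overlap and the second library after CMG was the lowest of all 8. Atp5f1c, the gamma subunit that turns inside the head, had 11.3 and 9.77 before and 6.92 and 7.03 after it, and Cox7c had 7.03 and 8.82 before and 5.61 and 5.62 after it, where the 2 libraries after CMG were alike.

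Ratios of counts within a library do not depend on its scaling, and they separated partners of the same complex. Atp5f1a made up 5.47% and 5.70% of the counts of Atp5f1a and Atp5f1b before CMG in the AngII model and 3.98% and 9.49% after it. In the DOCA–HS model the share was 12.7% and 10.1% before CMG and 5.58% (95% Wilson interval 5.10% to 6.10%) and 1.05% (0.682% to 1.62%) after it. Both DOCA–HS libraries after CMG thus lay below both before it, on 448 and 20 counts of Atp5f1a, while the AngII libraries after CMG lay on either side. Uqcrc2 made up 46.5% and 38.7% of the counts of Uqcrc1 and Uqcrc2 before CMG in the DOCA–HS model, and 35.7% (30.8% to 41.0%) and 4.62% (1.58% to 12.7%, 3 of 65 counts) after it. For the AngII libraries its share was 28.7% and 33.2% before CMG and 31.9% and 44.8% after it. These intervals cover counting error only, and with 2 libraries against 2 an exact two-sided permutation test cannot go below p = 0.333.

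Within ATP synthase, the shares of 2 further members separated the groups. Atp5me took 1.22% and 0.948% of the ATP synthase counts before CMG in the DOCA–HS model and 1.84% (1.64% to 2.06%) and 2.86% (2.42% to 3.38%) after it. For the AngII libraries it was 1.06% (0.928% to 1.218%) and 1.08% (0.901% to 1.284%) before CMG. After it, the AngII share was 0.805% (0.647% to 1.002%) and 0.730% (0.597% to 0.891%). The models thus moved in opposite directions with no overlap of the values in either. In the AngII model, however, the interval of the first library after CMG overlapped those of both before it. Atp5me also had the largest log2 fold change of the members in the DOCA–HS model. Its share comes from the same counts as the fold changes above and is not a separate observation. Within ATP synthase, only the shares of Atp5me and Atp5if1 were computed. Atp5if1 had AngII shares of 35.9% and 35.7% before and 35.0% and 31.6% after CMG, and DOCA–HS shares of 28.2% and 29.3% before and 24.6% and 25.7% after it. Its share was lower after CMG in both models, and lower in every DOCA–HS library than in every AngII library. Of all member counts, complex III took 12.4% to 17.0% over the 8 libraries, complex IV 29.7% to 32.9% and ATP synthase 50.6% to 55.4%. Complex III was lowest in the AngII libraries (12.4% to 13.2%), intermediate in the DOCA–HS libraries before CMG (13.98% and 14.2%) and highest in those after it (15.4% and 17.0%). Uqcrh alone held most complex III counts, 2534 of 3833 and 1847 of 2526 before CMG in the DOCA–HS model. After CMG it held 3415 of 4309 and 1246 of 1553, so this share largely follows 1 called gene.

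Markers of reticulocytes and erythroid cells moved with the members, except in the first DOCA–HS library after CMG. The AngII libraries summed to 32570 and 41770 normalized CPM of these markers before CMG and to 32630 and 20270 after it, the DOCA–HS libraries to 16550 and 23790 before CMG and to 17690 and 59630 after it. The 16 markers tested had a median of -0.50 on the log2 scale after CMG in the AngII model, with 16 below 0, and of 0.41 in the DOCA–HS model, with 13 above 0, and 0 of the 16 were called in either. The 6 platelet markers tested had medians of -0.30 and 1.05, with Pf4 and Treml1 called higher in the DOCA–HS model. Of the neutrophil markers, Lcn2 and Ngp were called lower there, and the medians were -0.26 and -0.42. Monocyte markers had medians of 0.72 and 0.53, T cell markers of -0.18 and -0.41 and B cell markers of 0.41 and -0.78, in the AngII and the DOCA–HS model respectively. Without the second DOCA–HS library after CMG, the median of the erythroid markers in that model turned to -0.24, with 0 of 16 called, and that of the platelet markers was 1.09, with Itgb3 called higher and Pf4 (log2 fold change 1.32) and Treml1 (0.88) no longer called. Without it, the neutrophil median was -0.92, with Lcn2, Ngp and Camp called lower, and the monocyte median 0.84, with Cx3cr1 and Fcgr3a called higher. The T cell and B cell medians were then -0.60 and -0.51. Itgb3, Camp, Cx3cr1 and Fcgr3a were named after their values were seen. The part of these cell types in the members' levels was not tested, beyond the ratios that follow.

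Per 100 counts of the erythroid markers, the members of the AngII libraries had 8.46 and 8.21 counts before and 8.73 and 8.79 after CMG, and those of the DOCA–HS libraries 9.18 and 7.96 before and 12.2 and 10.8 after CMG. Alas2, the erythroid enzyme that starts heme synthesis, made up 48.2% to 54.5% of the marker counts, and without it the member counts per 100 were 16.3, 17.2, 17.3 and 19.3 in the AngII libraries and 18.3 and 15.6 before and 24.9 and 21.5 after CMG in the DOCA–HS libraries. On either base the 2 DOCA–HS libraries after CMG were the highest of all 8. Per 100000 marker counts, Uqcrh had 848 and 825 counts before and 1484 and 1469 after CMG in the DOCA–HS model, Atp5mg 327 and 316 before and 536 and 774 after it, and Atp5me 59.6 and 40.2 before and 123 and 156 after it. Uqcrh was 746 to 861 in all AngII libraries, Atp5mg 281 to 303 and Atp5me 34.6 to 49.7. On this base, chosen after the data were seen, the 2 DOCA–HS libraries after CMG were close to each other for Uqcrh, while on normalized CPM they had been 263 and 876. Other members varied, with 111 and 120 for Cox5a but 3296 and 2217 for Atp5f1b and 195 and 23.6 for Atp5f1a.

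On that base both DOCA–HS libraries after CMG lay above both before it for 12 of the 35 members, against 4.12% of all genes, and below for 4, against 16.3%. For the AngII libraries these counts were 6 higher and 5 lower, against 38.1% and 1.68% of all genes. With the marker counts as library size, edgeR called 0 of 35 members in either model. The log2 fold change in the DOCA–HS model was 1.48 for Atp5me (unadjusted p = 0.122), 1.03 for Atp5mg (unadjusted p = 0.116) and 0.82 for Uqcrh (unadjusted p = 0.128). The median over the members was 0.00 against -0.47 over all genes in that model, and in the AngII model it was 0.02 against 0.52 over all genes. Relative to all genes, the members thus stood at -0.50 (AngII) and 0.47 (DOCA–HS), against -0.43 and 0.90 with TMM scaling.

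**Figure D5:**
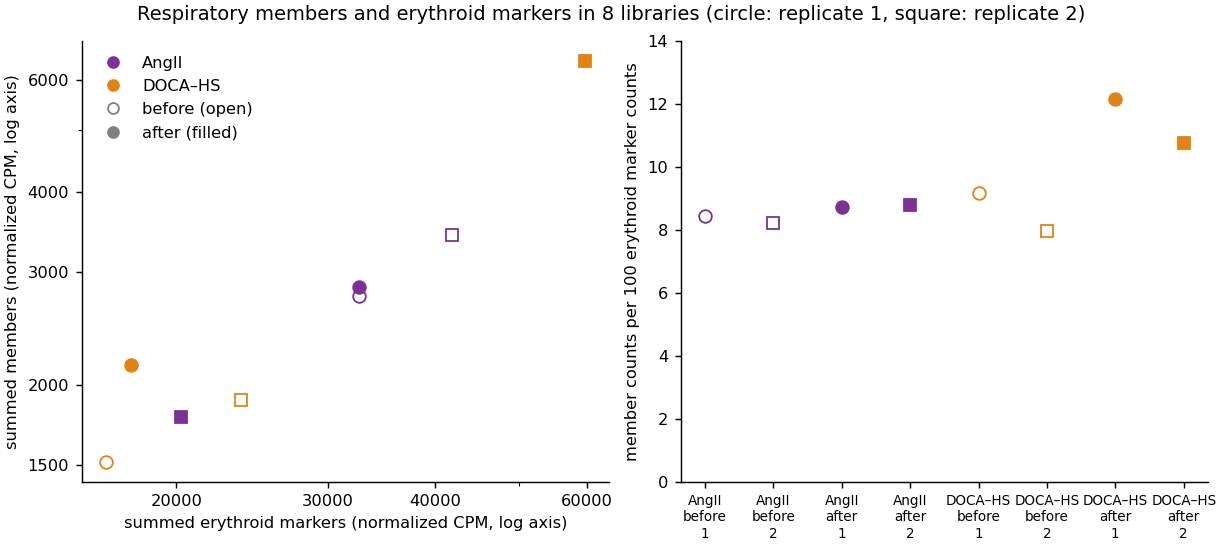
Left, summed normalized CPM of the members against that of the erythroid markers (both log axes) in the 8 libraries; right, member counts per 100 erythroid marker counts (from 0), with open symbols before and filled symbols after CMG, circles for replicate 1 and squares for replicate 2. The 2 sums rise together over the libraries except for the first DOCA–HS library after CMG, with 17690 for the markers and 2153 for the members. In the right panel the DOCA–HS libraries after CMG, at 12.2 and 10.8, lie above the other 6, at 7.96 to 9.18.

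The change after CMG was compared between the models in 1 fit of all 8 libraries. It was more positive in the DOCA–HS model for 10 of the 36 members tested and more negative for 1, against 2.25% and 0.913% of the 7994 genes tested. The 10 were Atp5me (log2 difference of the changes 3.43, SE 0.86, unadjusted p = 0.00228), Atp5mg (2.55, SE 0.92), Uqcrq (2.27, SE 0.95), Cox7a2 (2.15, SE 0.91), Uqcr10 (2.10, SE 0.90), Uqcrh (2.09, SE 0.85), Cox5a (2.00, SE 0.88), Atp5pd (1.96, SE 0.88), Uqcr11 (1.93, SE 0.83) and Atp5f1b (1.80, SE 0.80). For Atp5pd, a subunit of the peripheral stalk, the AngII libraries held 77.2 and 112 normalized CPM before and 80.5 and 49.5 after CMG, and the DOCA–HS libraries 42.9 and 57.3 before and 50.4 and 219.4 after it. For Uqcrq the AngII values were 15.8 and 24.8 before and 16.5 and 10.3 after CMG. The groups of both overlapped in both models. The median over the members was 1.37, against -0.12 over all genes, with 1.55 in complex III, 1.49 in complex IV and 1.09 in ATP synthase. The 1 negative call was Atp5pb, which rests on the single libraries with 41 and 47 counts given above and was not called without either, without the first AngII library before CMG or without the first DOCA–HS library after it. The lowest adjusted p was 0.881. Most positive calls were lost without the second DOCA–HS library after CMG, where the median was 0.48 over the members and -0.06 over all genes. Without the first DOCA–HS library after CMG the medians were 1.95 and -0.50, with Uqcrc2 at -2.63. Positive calls were also fewer without the second AngII library after CMG or without any 1 library before CMG. Atp5me stayed called in each of these fits. All of them leave 1 library in a group. With total counts as the scale 0 were called, and with the erythroid marker counts Atp5me was the 1 positive call.

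Before CMG, the DOCA–HS libraries at week 3 were set against the AngII libraries at week 1, so model and week cannot be told apart. Atp5pb was the 1 of 36 members called, higher in the DOCA–HS libraries on 47 and 2 against 1 and 1 counts, and 0 were lower, against 0.425% and 0.413% of all 7994 genes. It was not called without the library that held 47 counts, without either AngII library before CMG or without either DOCA–HS library after it. Of the members, 29 had log2 fold changes below 0, with a median of -0.51 against 0.06 over all genes. Both DOCA–HS libraries lay below both AngII libraries for 23 members, against 21.2% of genes, and above for 2, against 24.3%. Atp5if1 had 547 and 679 normalized CPM in the AngII libraries and 227 and 295 in those of the DOCA–HS model (log2 fold change -1.23, SE 0.60, unadjusted p = 0.0639), and Atp5f1b had 590 and 740 against 301 and 389 (-0.95, SE 0.56). The 16 erythroid markers were all below 0 as well, with a median of -0.94. On total counts the median over the members was 0.25 against 0.86 over all genes, and with the erythroid marker counts 0.37 against 0.97. Its sign thus turned with the scale, while relative to all genes the members stood between -0.57 and -0.61 on all of these scales. As a change of scale moves all genes of a library alike, these scales are not separate support for that relative value. These DOCA–HS libraries are also the base of the change after CMG above, so the lower level before CMG and the rise after it are not separate observations.

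Other genes of the same pathway were counted by the same criterion. Cyc1, the cytochrome-carrying subunit of complex III, had log2 fold changes of -0.24 (AngII) and 0.64 (DOCA–HS), and Ndufa4, now placed with complex IV, of -1.03 and 0.20, and neither met the criterion in either model. Of 12 assembly factors of complex IV tested, 1 was called, Pet100, which was higher in the DOCA–HS model, with 7.81 and 10.8 normalized CPM before and 16.0 and 54.1 after CMG (log2 fold change 1.87, SE 0.63, unadjusted p = 0.0173, adjusted p = 0.997). Without the second library after CMG it was not called (log2 fold change 0.80, unadjusted p = 0.0117). No assembly factor of complex III (2 tested in one model and 3 in the other) or of ATP synthase (4 and 5) was called, and their medians were 0.85 and -0.43, and -0.03 and -0.35. Complex II, which shares its enzyme with the citric acid cycle, had 4 of 4 genes tested and medians of -0.06 and -0.03, and the 17 citric acid cycle genes had medians of -0.15 and -0.19. A list of cytochrome c, carriers and other mitochondrial genes had 10 genes tested, among them the member Atp5md, and medians of -0.30 and -0.32. Regulators of mitochondrial biogenesis had medians of 0.02 over 9 genes and -0.23 over 10. None of these lists had a called gene in either model except Pet100. For the difference between the models, Pet100 was called more positive in the DOCA–HS model (log2 difference 1.98). Fh of the citric acid cycle was called more negative (-1.91), and both had an adjusted p of 0.881 (edgeR).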

How the data were processed

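RNA was measured in whole blood, in 8 libraries. The authors sequenced single-end stranded reads, aligned them to rn6 with HISAT2, counted reads per gene by strand with HTSeq, and deposited these raw counts without normalization. They state that hemoglobin annotations were removed, whereas Hbb and LOC100134871 are the most abundant genes in the counts. Total counts were 4149104 to 13205565 per library, and 0 columns of other samples were present. Within each group the spread exceeded counting error (chi-square per degree of freedom of 15.4 to 94.6 over all genes and of 4.38 to 21.4 over the members), so each was kept as 1 replicate.

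Samples were grouped by model and by before or after CMG from the labels. Each model was fitted alone in edgeR 4.0.16 with R 4.3.3 (filterByExpr, TMM, glmQLFit, glmQLFTest), and the difference between the models and the comparison before CMG came from a fit of all 8 libraries. The criterion, a log2 fold change beyond 1.5 with an unadjusted p of at most 0.05, follows the study's methods, and adjusted p-values are Benjamini-Hochberg values over all genes tested. SE is the absolute log2 fold change divided by the square root of F. Log2 differences of single libraries used a prior count of 2. The members and lists were chosen with earlier results of these data known.

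Values per library were given for members called in any of the 4 comparisons, for the 2 with the smallest p in each model and complex, for Uqcrfs1, Uqcrc1, Cox4i1, Cox5a, Atp5f1a, Atp5f1b and Atp5if1, and for the tissue isoforms. Cox7a1 and Cox7b2 and the lengths of the proteins were not analysed here. Subunit genes have processed pseudogenes, and whether reads were shared with them was not tested. Gene lists covered the markers of blood cells and heart muscle and the mitochondrial groups named in the text. Alternatives were DESeq2 1.42.0, limma-voom (limma 3.58.1), DESeq2 size factors within edgeR, total counts with and without hemoglobin, no filter on low counts, a minimum of 10 counts per library, a log2 fold change beyond 1, an adjusted p under 0.05, a single fit of all 8 libraries, a replicate block, each library left out, and, chosen after seeing the data, the erythroid marker counts as library size. The computation was tested on simulated data first.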

Additional observations from a re-analysis of the deposited data

Results flagged for a closer look

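The test of the difference between the models in the change after CMG (edgeR, 8 libraries) called 11 of the 36 members tested. Calls needed a log2 difference past 1.5 in either direction, with p at most 0.05 before adjustment. Over all 7994 genes tested, 2.25% were called more positive in the DOCA–HS model and 0.913% more negative. Of these genes, 0 had an adjusted p under 0.05, so the calls do not establish a difference for any single member. The log2 difference was positive for Atp5me (3.43), Atp5mg (2.55), Uqcrq (2.27), Cox7a2 (2.15), Uqcr10 (2.10), Uqcrh (2.09), Cox5a (2.00), Atp5pd (1.96), Uqcr11 (1.93) and Atp5f1b (1.80). For all 10 the adjusted p was 0.881, and the second DOCA–HS library after CMG was the highest of the 8. The fitted difference of -6.30 for Atp5pb depends on counts of 0 to 4 in 6 of the 8 libraries and is not a size of effect.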

How the results depend on the processing

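The counts of called members depended on the scaling and on single libraries, and the cause was not tested. In the DOCA–HS model, where 5 members were called higher, DESeq2 called 11, limma-voom 3, a minimum of 10 counts in every library 2, total counts outside hemoglobin 1, and total counts, the erythroid marker counts and an adjusted p under 0.05 each 0. Without single libraries the number was 0 to 17, with 0 to 2 called lower, and with no filter 1 (Atp5pb) was lower. The median was -0.35 on total counts and -0.055 to 1.35 without single libraries. The difference of medians between complex III and ATP synthase was 0.86 with at least 10 counts and 0.15 to 0.67 without single libraries. That between complex IV and ATP synthase was 0.32 outside hemoglobin, 0.58 with no filter, 0.59 in limma-voom, 0.61 in the fit of all 8 libraries and 0.29 to 0.66 without single libraries. In the AngII model, Atp5pb made 1 higher call with no filter, in the fit of all 8 libraries and without 2 of the single libraries (range 0 to 1). The AngII median was 0.023 on the erythroid marker counts and -0.80 to -0.25 without single libraries, and the differences of medians from ATP synthase were -0.003 to 0.13 for complex III and -0.15 to 0.19 for complex IV.

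For the difference between the models, higher calls numbered 5 in limma-voom, 2 with at least 10 counts, 1 outside hemoglobin, 1 on the erythroid marker counts, 0 on total counts, 0 at an adjusted p under 0.05 and 1 to 23 without single libraries. The lower call of Atp5pb was absent (0) in DESeq2, limma-voom, with at least 10 counts and at an adjusted p under 0.05, and without 4 of the 8 single libraries. Lower calls ranged from 0 to 1 without single libraries, and without the first DOCA–HS library after CMG Atp5pb (-10.71) was not called and Uqcrc2 was. The fitted value of Atp5pb turned to 0.77 without the second AngII library after CMG. The median was -0.17 on total counts, 0.34 outside hemoglobin, 0.027 on the erythroid marker counts and 0.48 to 1.95 without single libraries. Before CMG, the higher call of Atp5pb was absent (0) in DESeq2, limma-voom, with at least 10 counts and at an adjusted p under 0.05, and ranged from 0 to 1 without single libraries. The median there was 0.25 on total counts, 0.19 outside hemoglobin, 0.37 on the erythroid marker counts and -0.83 to -0.45 without single libraries.

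Libraries with the same replicate number deviated together (correlation over genes 0.473 for AngII and 0.321 for DOCA–HS), but 2 pairs a model do not show that the numbers pair rats. With the replicate block, 0 members were called in the AngII model, 3 in the DOCA–HS model (with a difference between complex IV and ATP synthase of 0.33), 12 higher and 1 lower for the difference between the models, and 1 before CMG. Relative to all genes, the members' median kept its sign under every scaling tried. A change of scale moves all genes of a library alike, so the kept sign is not separate support. In the DOCA–HS model the median relative to all genes turned to -0.04 without the second library after CMG. Depth limits the second DOCA–HS library after CMG most, with 32 members at 10 counts or more.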
